A study of Mus musculus with 12 samples.

Results

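The parathyroid genes described here are Pth, Gcm2 and Casr, read from the dissected thymus of day 7 pups as a possible sign of parathyroid tissue in the preparation. The members were set by name, and each was to be represented by its brightest probe set carrying 1 gene symbol. Of the 3 genes, 2 (Pth and Casr) had such a probe set, 1 each, among 19938 named genes, and Gcm2 was not analysed here. RNA of thymic epithelium/stroma had been hybridised to 12 whole-transcript arrays: XX females (XXF) and XY females (XYF) had 3 each, XX males (XXM) 4 and XY males (XYM) 2. Pups were FCG mice on a C57BL/6J background, all of postnatal day 7 and untreated as far as the labels tell. In this model the Y chromosome lacks Sry, and an autosomal transgene, present in several copies, supplies it to XXM and XYM, so that gonadal sex and sex chromosomes are inherited apart. The gonadal males are therefore a model in which the Sry dose is not that of wild-type males. Thymocytes had been pressed out of the tissue and washed away before RNA was extracted. Neither labels nor methods state that the arrays come from separate pups, and the p-values therefore refer to the spread from array to array, which may be technical.

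The thymus and the parathyroid glands both grow out of the third pharyngeal pouch, where Gcm2 marks the parathyroid domain and Foxn1 the thymic one. Parathyroid chief cells secrete Pth, parathyroid hormone, which raises blood calcium, and they sense calcium through Casr, the G protein-coupled calcium receptor that restrains the release of the hormone. In mice, clusters of Pth-producing cells can stay in or beside the thymus after the glands separate, and medullary thymic epithelial cells also transcribe low amounts of many tissue-restricted genes, in part under the regulator Aire. Chga, chromogranin A, is a storage protein of the secretory granules of endocrine cells, parathyroid chief cells among them.

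The promoters of Pth, Casr and Chga are shown because Pth and Chga varied together more closely than Pth varied with any other gene, as described below, while Casr varied little. Each window runs from 250 bases before to 50 bases after the start used for the gene in a promoter table from RefSeq (GRCm38.p6), and each of the 3 genes matched 1 window. For Pth and Casr that start lies inside the outer bound of the gene (113388672 and 36562141), so positions given below depend on the start chosen. The Pth window lies on the minus strand at chr7:113388524-113388823, the Casr window on the minus strand at chr16:36562085-36562384 and the Chga window on the plus strand at chr12:102554691-102554990. Capitals mark matches to the motifs searched.
Pth: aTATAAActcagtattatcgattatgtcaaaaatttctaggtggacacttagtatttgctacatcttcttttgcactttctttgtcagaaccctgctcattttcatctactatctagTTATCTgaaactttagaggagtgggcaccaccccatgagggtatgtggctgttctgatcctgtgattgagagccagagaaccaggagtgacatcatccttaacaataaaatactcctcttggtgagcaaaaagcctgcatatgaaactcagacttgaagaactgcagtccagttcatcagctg
Casr: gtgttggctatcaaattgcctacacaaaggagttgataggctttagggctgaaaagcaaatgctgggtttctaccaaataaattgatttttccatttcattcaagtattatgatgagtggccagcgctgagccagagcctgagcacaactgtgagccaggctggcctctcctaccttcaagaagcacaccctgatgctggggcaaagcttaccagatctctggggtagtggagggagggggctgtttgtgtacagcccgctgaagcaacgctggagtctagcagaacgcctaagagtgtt
Chga: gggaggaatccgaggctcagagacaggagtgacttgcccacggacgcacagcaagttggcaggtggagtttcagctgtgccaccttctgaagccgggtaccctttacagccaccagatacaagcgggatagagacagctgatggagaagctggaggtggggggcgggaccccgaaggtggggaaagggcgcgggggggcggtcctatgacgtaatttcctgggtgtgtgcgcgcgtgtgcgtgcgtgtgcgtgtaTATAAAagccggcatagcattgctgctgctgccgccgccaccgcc
The search ran on both strands of 32851 promoter windows of the same length. It used TATAAA for the TATA box and AGATAA for GATA factors. For GCM factors it used ATGCGGG. For the cyclic AMP response element it used TGACGTC. The Pth window held TATAAA at position -249, counting the start base as 0 and the leftmost base of a match, and, on the minus strand, AGATAA at -133. The Chga window held TATAAA at position 5, and the Casr window held none of these letters. TATAAA occurs in 13.6% of all windows and AGATAA in 11.2%, and neither match overlapped another. The exact letters for GCM factors (1.41% of all windows) and the cyclic AMP response element (3.21%) were found in none of the 3 windows. Of the exact letters searched, Pth and Chga thus shared TATAAA alone, at different distances from the start. Near matches were not counted. The Chga window holds tgacgta and the Pth window tgacatc, each differing from TGACGTC by 1 letter. The absence of such a site therefore cannot be read from this search.

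Pth differed widely from array to array and did so within genotypes. On the XXF arrays its signal, a linear intensity, was 446 on array 3, 329 on array 7 and 148 on array 11. The XYF arrays gave 384 on array 4, 358 on array 8 and 262 on array 12. The XXM arrays gave 356 on array 2, 285 on array 5, 551 on array 6 and 118 on array 10, and the XYM arrays 740 on array 1 and 348 on array 9. The highest array, XYM array 1, was thus 6.29-fold above the lowest, XXM array 10, where Pth was not above the background described below, so that the fold is limited by that background. The ranges of all 4 genotypes overlapped. Mean Pth signal was 307 ± 150 (SD, n = 3) in XXF, 335 ± 64.4 (SD, n = 3) in XYF, 327 ± 179 (SD, n = 4) in XXM and 544 ± 277 (SD, n = 2) in XYM. Because these are bulk preparations, fewer Pth-producing cells and less Pth RNA per cell cannot be told apart.

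Casr stayed within a narrow band. Its signal was 291 on array 3, 298 on array 7 and 277 on array 11 in XXF, and 282 on array 4, 286 on array 8 and 268 on array 12 in XYF. It was 261 on array 2, 259 on array 5, 299 on array 6 and 258 on array 10 in XXM, and 316 on both XYM arrays, 1 and 9. The highest value was 1.23-fold above the lowest. The genotype means were 288 ± 10.4 (SD, n = 3) in XXF, 279 ± 9.48 (SD, n = 3) in XYF, 269 ± 19.7 (SD, n = 4) in XXM and 316 ± 0.148 (SD, n = 2) in XYM.

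**Figure D1:**
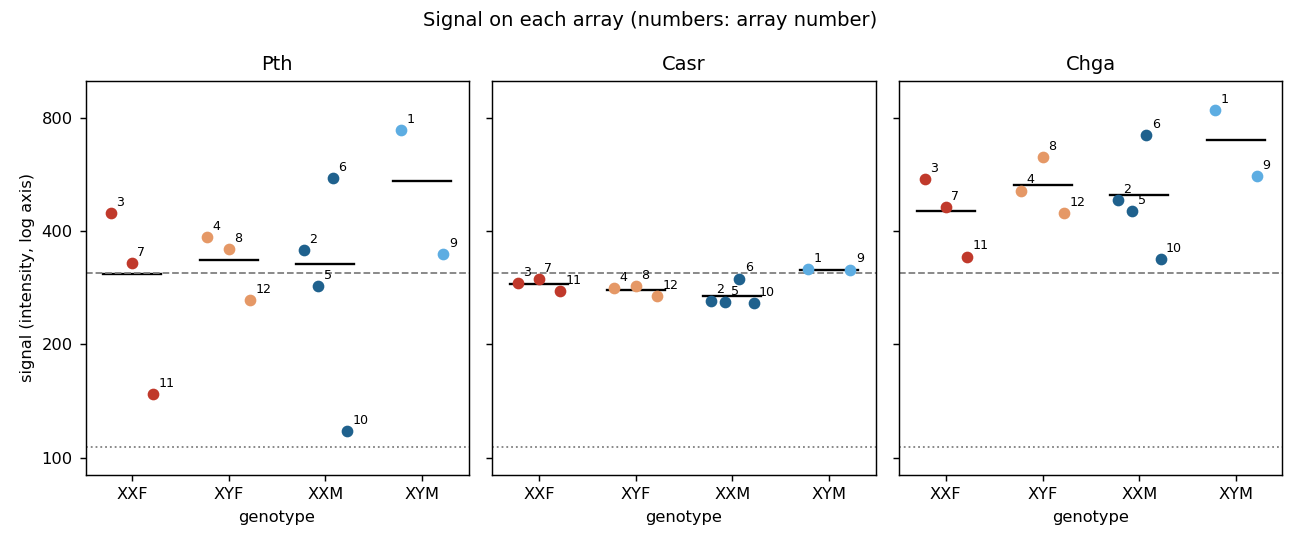
Signal (intensity, log axis) of Pth, Casr and Chga on each array, by genotype, with points numbered by array and a bar at the mean of the genotype. The dashed and dotted lines are the 95th percentile (309.5) and the median (107) of 1035 olfactory receptor probe sets. Pth runs from 118 to 740 and Casr from 258 to 316.

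The table holds no detection call, so the signal was set against 1035 probe sets of olfactory receptors, which are largely silent outside the nose. Their median signal was 107 and their 95th percentile 309.5. Mean Pth signal over the 12 arrays, 360 ± 168 (SD, n = 12), stood at the 97.6th percentile of that reference. Within single arrays, however, the Pth percentile ran from 49.8 on XXM array 10 to 99.9, and Pth was above the 95th percentile of its own array on 7 of 12 arrays. On the array with the lowest value, Pth thus had the signal of a middling olfactory receptor probe set. Mean Casr signal, 284 ± 20.5 (SD, n = 12), stood at the 93.7th percentile, with single arrays from 89.9 to 96.3, and was above the 95th percentile of its own array on 3 arrays. A Casr signal above this background therefore was not shown on most arrays, and its small spread is that of a probe set whose signal lay within the range of the background. Against 175 vomeronasal receptor probe sets, a dimmer reference, Pth and Casr both stood at the 98.9th percentile.

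The spread of Pth was large for its level. The SD of its log2 signal over the 12 arrays was 0.73, against a median SD of 0.13 among 3176 genes of closely similar mean signal. That placed Pth at the 99.8th percentile of those genes, and at rank 30 among the 18200 named genes that reached a mean of 100. After the genotype means were removed, the SD was 0.77. The sex-linked genes Eif2s3y, Xist, Uty and Kdm5d and the transgene-borne Sry are among the 29 genes with a larger spread, and 21 of the 29 had their highest signal on XXM array 10. Casr had an SD of 0.10, at the 24.7th percentile of 3219 genes of like signal.

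**Figure D2:**
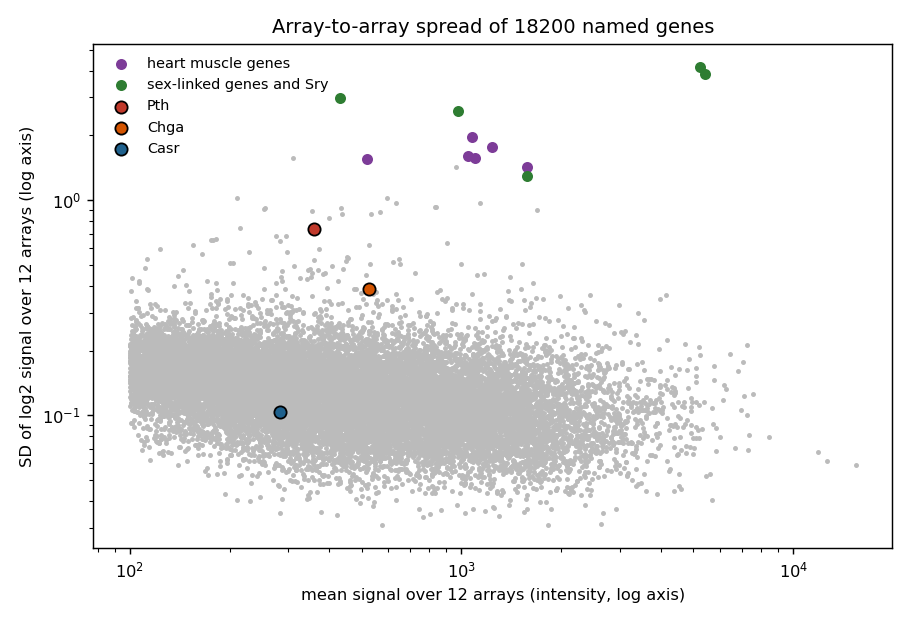
SD of log2 signal over 12 arrays against mean signal (both axes logarithmic) for the 18200 named genes that reached a mean of 100, 1 point a gene. Pth, at an SD of 0.73, lies above most genes of like signal, Chga is at 0.39 and Casr at 0.10. The green points are Xist, Eif2s3y, Kdm5d, Uty and Sry, and the purple points 6 heart muscle genes.

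The XXM arrays with the highest signal of heart muscle genes lay at opposite ends of the Pth range. Nppa, the atrial natriuretic peptide, had a signal of 10150 on XXM array 10 and of 197 to 265 on the other arrays. The summed signal of 6 heart muscle genes (Nppa, Myl7, Myh6, Actc1, Tnnt2 and Myl4, a list drawn up after values had been seen) was 52204 on XXM array 10, 11127 on XXM array 6 and 1356 to 1958 on the other 10 arrays. XXM array 10 had the lowest Pth signal of the series, 118, and XXM array 6 the second highest, 551. The summed signal of the skeletal muscle list was highest on XXM array 6, at 4131, with 3171 on XXM array 10 and 3035 on XXM array 5. The part of heart or skeletal muscle RNA in the Pth values was not tested. Without XXM arrays 6 and 10 the SD of log2 Pth was 0.59.

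Neither gonadal sex nor sex chromosomes moved Pth or Casr past the threshold. The authors considered a lasting influence of sex on the genes expressed by thymic epithelium/stroma. Gonadal hormones and the Sry transgene go together in the comparison by sex and cannot be told apart. Pth signal in the 6 gonadal males had its lowest value at 118, its median at 352 and its highest at 740, and in the 6 gonadal females at 148, 343 and 446, so the female range lay inside the male one. Over all 4 genotypes limma put the log2 difference, male minus female, at 0.33 (SE 0.39, 95% confidence interval -0.52 to 1.17, adjusted p = 0.985). For Casr it was 0.04 (SE 0.06, interval -0.09 to 0.17, adjusted p = 0.985), so a male excess of Casr as large as the upper bound could not be set apart from none. Of the 2 genes, 0 passed the limma test at an adjusted p of 0.05, where 0.00281% of 35556 probe sets did, and 0 had an unadjusted p under 0.05 (3.03% of probe sets did). Exact two-sided permutation tests over all 924 groupings of the arrays gave p = 0.684 for Pth and p = 1.00 for Casr, where the smallest possible p was 0.00108.

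By sex chromosomes, Pth in the 7 XX arrays ran from 118 through a median of 329 to 551. The 5 XY arrays gave 740, 384, 358, 348 and 262, a range that overlapped that of the XX arrays. The log2 difference, XY minus XX, was 0.54 for Pth (SE 0.39, interval -0.31 to 1.39, adjusted p = 1.00 by limma) and 0.09 for Casr (SE 0.06, interval -0.04 to 0.22, adjusted p = 1.00). Again 0 of the 2 passed the adjusted limma test (0.0366% of probe sets did) or an unadjusted p of 0.05 (2.55% did). The exact two-sided permutation tests over 792 groupings gave p = 0.285 for Pth and p = 0.187 for Casr, where the smallest possible p was 0.00126. The intervals for Pth are wide on either comparison and hold differences of more than 2-fold.

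The interaction asks whether the difference by sex chromosomes is itself different in males and females. For Casr it was 0.28 on the log2 scale (SE 0.12, interval 0.03 to 0.54), with an unadjusted p of 0.0333 and an adjusted p of 1.00 by limma. The means behind it were 316 in XYM against 269 in XXM, and 279 in XYF against 288 in XXF. Among the olfactory receptor probe sets of the same array, the Casr percentile was 96.2 on XYM array 1 and 91.8 on XYM array 9. On XXM arrays 2, 5, 6 and 10 it was 94.8, 92.6, 92.9 and 89.9. On this scale XYM array 9 therefore did not stand above the XXM arrays. The part of the array background in the interaction was not tested. At an unadjusted p under 0.05 this was 1 gene of 2, where 1.54% of probe sets had one, and at the adjusted threshold 0 of 35556 probe sets passed. For Pth the interaction was 0.59 (SE 0.77, interval -1.11 to 2.28, adjusted p = 1.00). The moderated F test over the 4 genotypes gave an adjusted p of 1.00 for both genes, where 0.0281% of probe sets passed and 1.99% had an unadjusted p under 0.05.

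**Figure D3:**
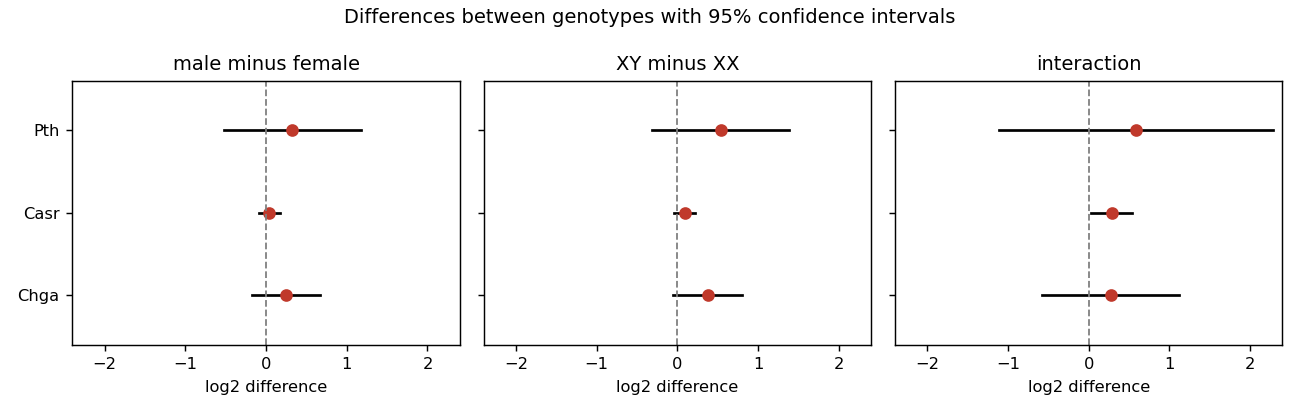
Log2 differences (points) with 95% confidence intervals (lines) from limma for Pth, Casr and Chga, by gonadal sex (male minus female), by sex chromosomes (XY minus XX) and for their interaction. The Pth intervals are the widest and cross 0 in all 3 panels, and the Casr interval lies above 0 in the panel of the interaction, where its adjusted p is 1.00.

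The array numbers of the labels moved with Pth. Mean Pth signal was 481 ± 176 (SD, n = 4) on arrays 1 to 4, 381 ± 117 (SD, n = 4) on arrays 5 to 8 and 219 ± 106 (SD, n = 4) on arrays 9 to 12, each set with 2 arrays from males and 2 from females. What the numbers stand for is not given in the sources used here, and their part in the spread was not tested. Casr had means of 287 ± 22.7, 285 ± 18.5 and 280 ± 25.4 (SD, n = 4 each) in the same sets. Within the sets the log2 difference of Pth, male minus female, was 0.31, 0.21 and 0.04, and XY minus XX was 0.42, -0.06 and 1.19, the middle value resting on 1 XY array. For Casr, male minus female was 0.00, -0.07 and 0.07, and XY minus XX was 0.12, 0.01 and 0.12. With the sets as a block, the difference of Pth by sex chromosomes was 0.68 (SE 0.22, unadjusted p = 0.0144, adjusted p = 0.718), in a fit in which 6.9% of all probe sets had an unadjusted p under 0.05 and 0.0394% an adjusted one. The Casr interaction was 0.32 in the same fit (unadjusted p = 0.0077, adjusted p = 0.765), where 6.4% of probe sets had an unadjusted p under 0.05.

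Pth and Casr varied together to a moderate degree. Over the 12 arrays their log2 signals had a Pearson r of 0.66 (two-sided permutation p = 0.0180) and a Spearman rho of 0.70 (permutation p = 0.0144), the only one of the 3 pairs of members that could be computed. The correlation was 0.69 after removal of the genotype means and 0.79 after removal of the means of the 3 sets of arrays. Without XXM array 10 and XXF array 11, the arrays farthest from the Pth median, r was 0.65 (permutation p = 0.0409) and rho 0.58 (permutation p = 0.0882). It did not pass without XYM array 1 (r = 0.55, permutation p = 0.0821) or without XXM array 10 (r = 0.56, permutation p = 0.0687). Without XXM arrays 6 and 10, those high in heart muscle genes, r was 0.53 (permutation p = 0.111). The relation therefore rested in part on the arrays at the ends of the Pth range. For its likeness to Pth, Casr had rank 585 of 18199 genes, the 95th percentile of all r with Pth being 0.62. Its rank was 2128 after removal of the genotype means, 1497 without XXM arrays 6 and 10 and 114 within the sets of arrays.

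The gene most like Pth was Chga, which stood in the list of secretory granule genes. Chga signal was 550 on array 3, 463 on array 7 and 342 on array 11 in XXF, and 512 on array 4, 627 on array 8 and 446 on array 12 in XYF. In XXM it was 483 on array 2, 452 on array 5, 718 on array 6 and 336 on array 10, and in XYM 837 on array 1 and 558 on array 9. The arrays highest and lowest in Pth, XYM array 1 and XXM array 10, were also the highest and lowest in Chga, and the next in line at either end, XXM array 6 and XXF array 11, were the same too. Pearson r between log2 Chga and log2 Pth was 0.94 and Spearman rho 0.92 over 12 arrays, the highest r of 18199 genes, whose median was -0.07. When each array was left out in turn, r stayed between 0.92 and 0.96. It was 0.93 without XXM arrays 6 and 10, where Chga again had rank 1, 0.94 after removal of the genotype means, where it had rank 6, and 0.94 within the 3 sets of arrays, where it had rank 2 after Napsa. The rank was read from the same arrays over all genes and is a description, with no test. Arrays of 1 series share tissue preparation and normalization, so genes are not independent of each other here.

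**Figure D4:**
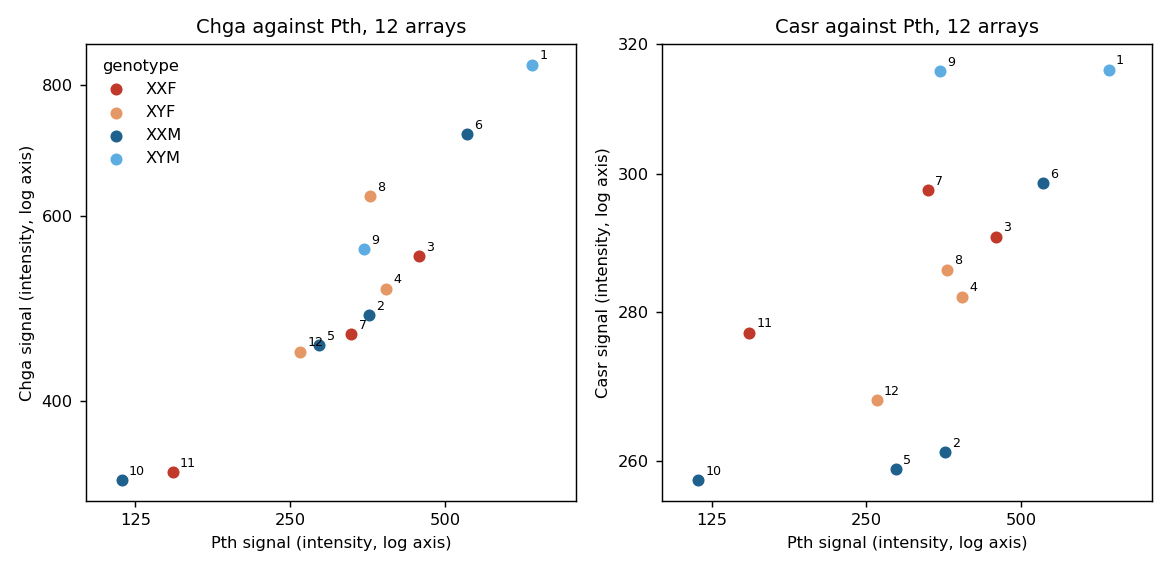
Chga (left) and Casr (right) signal against Pth signal on 12 arrays (intensity, log axes), coloured by genotype and numbered by array. Chga climbs with Pth from XXM array 10 to XYM array 1 (r = 0.94), and Casr scatters more widely (r = 0.66) over a narrow range.

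Chga was well above the olfactory reference, with a mean of 527 ± 146 (SD, n = 12) at the 99.5th percentile, and was above the 95th percentile of its own array on 11 of 12 arrays. It ranged 2.49-fold from the lowest to the highest array, with an SD of log2 signal of 0.39 at the 99.4th percentile of 3058 genes of like signal. Its genotype means were 451 ± 104 (SD, n = 3) in XXF, 528 ± 91.8 (SD, n = 3) in XYF, 497 ± 160 (SD, n = 4) in XXM and 697 ± 197 (SD, n = 2) in XYM. By limma the log2 difference was 0.25 by sex (SE 0.19, adjusted p = 0.985) and 0.38 by sex chromosomes (SE 0.19, adjusted p = 1.00), neither past the threshold. Exact permutation tests gave p = 0.485 by sex and p = 0.154 by sex chromosomes.

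After Chga, the genes nearest to Pth were Fat2 (r = 0.90), Epcam (0.89), Ptprz1 (0.88) and Unc5c (0.87), over 12 arrays. Fat2 encodes an atypical cadherin, Epcam an adhesion molecule of epithelial cells, Ptprz1 a receptor tyrosine phosphatase and Unc5c a netrin receptor. Their likeness to Pth was lower within the sets of arrays, with r of 0.77, 0.75, 0.74 and 0.70 and ranks of 160, 242, 282 and 492. Epcam signal ran from 530 on XXM array 10 to 1006 on XYM array 1, the same arrays as the ends of the Pth range. Nearest to Casr were Elovl7 (0.83), a fatty acid elongase, S100a4 (0.82), a calcium-binding protein, Mir141 (0.81), a microRNA gene, Klrb1b (0.80), a natural killer cell receptor, and Fos (0.80), an immediate early transcription factor. The highest r with Casr was thus below the highest r with Pth, and the Casr range behind it was 1.23-fold. The 5 genes nearest to Casr had mean signals of 121 to 286, below the 95th percentile (309.5) of the olfactory receptor probe sets, as was the mean of Casr.

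The lists of other genes were read in 2 ways, because Pth moved with the array numbers: by r with Pth over the 12 arrays and by r after removal of the means of the 3 sets of arrays, called r within sets. Over all 18199 genes, 45.2% had an r above 0 and 53.3% an r within sets above 0, with medians of -0.07 and 0.04. Counts below are of genes with a mean signal of 100 or more. For several lists the 2 readings had opposite signs, and these r were given no test.

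Among the genes of the endocrine secretory path other than Chga, 2 of 10 had an r with Pth above 0 (median -0.13) and 4 of 10 an r within sets above 0 (median -0.18). Chgb, another granin, had a signal of 246 to 322, an r of -0.72 and an r within sets of -0.25. Pam, which amidates peptide hormones and is abundant in atrial muscle, had a signal of 2469 on XXM array 10, the array lowest in Pth. On the other arrays Pam ran from 706 on XYF array 12 to 1323 on XXM array 6, the array second highest in Pth. Its r with Pth without XXM array 10 is not given here, so its place in these counts may rest on that array. The convertase Furin (mean signal 863 ± 77.5, SD, n = 12) had an r of -0.10 and within sets of -0.51, and Pcsk7, another convertase (825 ± 30.8, SD, n = 12), likewise -0.10 and -0.61. The chaperone Scg5 (371 ± 20.9, SD, n = 12) went from -0.05 to 0.60, and Syp, a vesicle membrane protein, from -0.16 to 0.74. Chga alone in this list was above 0.9 both ways.

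Transcription factors of the pharyngeal pouch and parathyroid were led by genes that the thymus itself uses. Of 7 measured, 6 had a mean above the 95th percentile of the olfactory reference, 5 had an r with Pth above 0 (median 0.26) and 4 an r within sets above 0 (median 0.06). Pax1, a pouch transcription factor, had a mean signal of 1371 ± 147 (SD, n = 12), and its r of 0.26 turned to -0.17 within sets. Gata3, needed by both parathyroid and T cells, had 1246 ± 110 (SD, n = 12), with r of -0.17 and -0.29. Eya1, a transcriptional coactivator of the pouch, had 1154 ± 83.3 (SD, n = 12), and its r turned from 0.37 to -0.13. Tbx1, active in the pharyngeal pouches, had 654 ± 63.1 (SD, n = 12), and its r turned from -0.32 to 0.44. Pth thus had no stable direction with 3 of these 4 genes. Pax9, Six4 and Hoxa3 of the same list kept a positive sign, with r of 0.72, 0.55 and 0.12. Within sets their r was 0.43, 0.06 and 0.52.

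For the genes that act around the hormone, the direction depended on the array sets. Of 11 genes of the PTH and calcium hormone axis, 0 had an r with Pth above 0 (median -0.17), and 8 had an r within sets above 0 (median 0.45). Fgfr1, a receptor for fibroblast growth factors, had the highest mean, 680 ± 97.3 (SD, n = 12), with r of -0.01 and within sets of -0.05. Fgf23, a phosphate-lowering hormone, had 435 ± 28.9 (SD, n = 12), with r of -0.15 and 0.43, and Vdr, the vitamin D receptor, 429 ± 37.8 (SD, n = 12), with r of -0.08 and -0.14. S100g, an intracellular calcium-binding protein, had 143 ± 13.4 (SD, n = 12), with r of -0.17 and 0.46.

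Of 13 genes of calcium receptor signalling, 7 had an r with Pth above 0 (median 0.19) and 7 an r within sets above 0 (median 0.13). Flna, a scaffold that binds the receptor, had r of 0.66 and 0.36, and Gnaq, a G protein alpha subunit, 0.76 and 0.40. The G protein subunits Gnai2 (mean signal 3553 ± 208, SD, n = 12) and Gna11 (902 ± 55.0, SD, n = 12) had r of 0.20 and 0.19, which turned to -0.23 and -0.51 within sets. Ramp1, a receptor partner protein, had r of -0.49 and -0.29, and Gprc6a, a related receptor, -0.27 and 0.29.

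**Figure D5:**
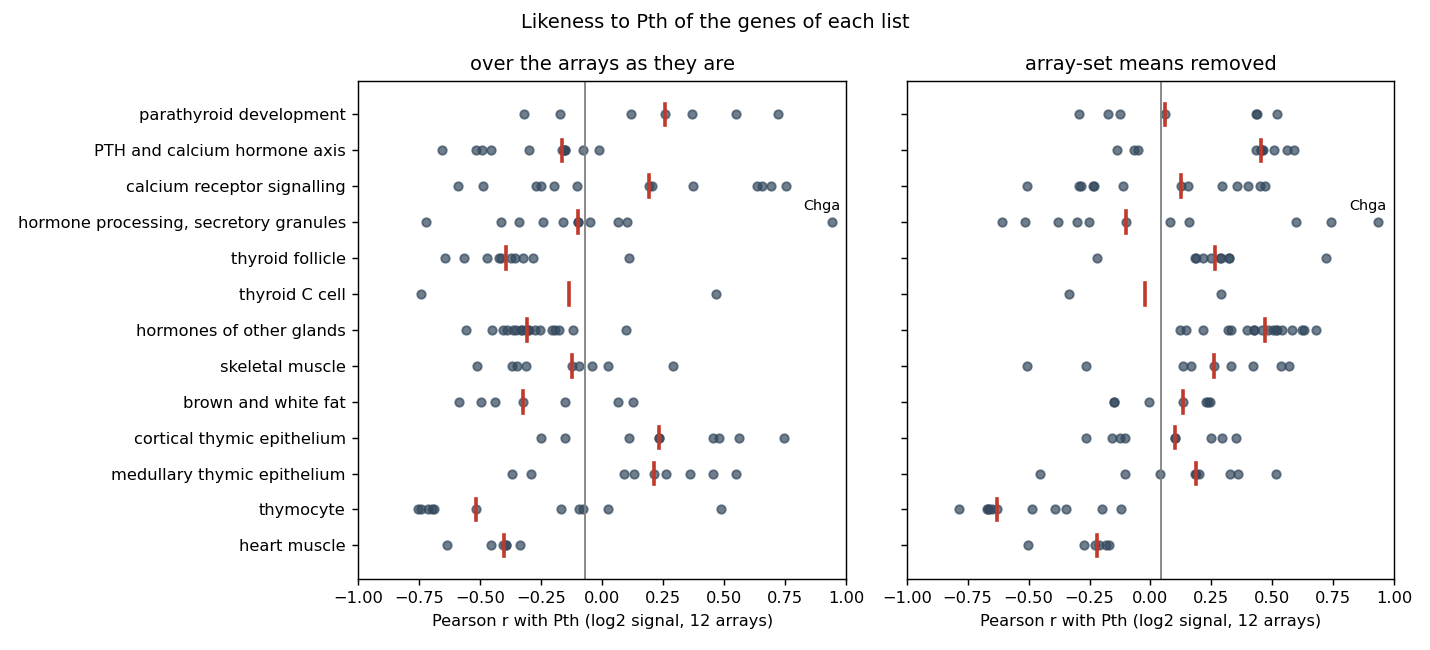
Pearson r with Pth (log2 signal, 12 arrays) of the genes of each list with a mean signal of 100 or more, over the arrays as they are (left) and after removal of the means of arrays 1 to 4, 5 to 8 and 9 to 12 (right). Points are genes, red bars list medians and grey lines the medians of all named genes (-0.07 and 0.04). Chga stands at 0.94 in both panels, and the hormones of other glands, thyroid follicle and PTH axis lists change side.

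Neighbouring tissues were looked for because a dissected thymus can carry them. Of 10 thyroid follicle genes measured, 3 had a mean above the 95th percentile of the olfactory reference. With Pth, 1 of the 10 had an r above 0 (median -0.39), but 9 had an r within sets above 0 (median 0.27). Tg, thyroglobulin, the product that defines the follicle, had a signal of 175 to 275, below that percentile. Foxe1 (561 ± 36.5, SD, n = 12) and Nkx2-1 (517 ± 47.3, SD, n = 12), both thyroid transcription factors, had r of -0.28 and -0.57, which turned to 0.25 and 0.22 within sets. The summed signal of the follicle list was 2519 to 2959 on the female arrays and 2565 to 3181 on the male arrays, and 2519 to 3049 on the XX and 2615 to 3181 on the XY arrays.

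For C cells, Calcb, a calcitonin family peptide, had 351 ± 35.7 (SD, n = 12), with r of 0.47 and within sets of 0.29, and Gfra4, a co-receptor, 285 ± 24.3 (SD, n = 12), with r of -0.74 and -0.33. Calca was not analysed here. The C cell sum was 614 to 670 on the female and 559 to 681 on the male arrays, and 559 to 648 on the XX and 636 to 681 on the XY arrays.

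Among 18 hormone genes of other glands, 1 had an r with Pth above 0 (median -0.31) and all 18 an r within sets above 0 (median 0.47). The most intense were Oxt (525 ± 88.3, SD, n = 12), Avp (478 ± 60.9, SD, n = 12) and Ppy (446 ± 48.5, SD, n = 12), with r of -0.33, -0.56 and -0.39, which turned to 0.68, 0.58 and 0.51. Their sum was 4482 to 5276 on the female and 4452 to 6253 on the male arrays. Of the skeletal muscle genes, 2 of 9 had an r above 0 and 7 an r within sets above 0, and of the fat genes 2 and 4 of 7. Of the heart muscle genes it was 0 of 6 both ways, with medians of -0.40 and -0.22. These genes share their highest array, XXM array 10 (sum 52204), which was the lowest in Pth, so the count is not 6 separate observations. XXM array 6, next in heart muscle signal (11127), was the second highest in Pth.

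The thymic cells themselves were plain in every preparation. Of the cortical thymic epithelial genes, 9 of 9 had a mean above the 95th percentile of the olfactory reference, of the medullary genes 8 of 9 and of the thymocyte genes 11 of 11, so thymocyte RNA remained in the washed tissue. Foxn1, the thymic counterpart of Gcm2 in the pouch, had a mean of 1359 ± 124 (SD, n = 12) and r with Pth of -0.25 and within sets of -0.10. Aire had a mean of 1080 ± 142 (SD, n = 12) and r of 0.09 and 0.33.

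Thymocyte genes ran against Pth both ways, with an r above 0 in 2 of 11 (median -0.52) and an r within sets above 0 in 0 of 11 (median -0.63), and Cd8b1, a subunit of the CD8 co-receptor, was at -0.76 and -0.66. Cortical genes had an r above 0 in 7 of 9 (median 0.23) and an r within sets above 0 in 5 (median 0.10), and Ctsl, a cathepsin, was at 0.75 and 0.30. Medullary genes had an r above 0 in 7 of 9 both ways (medians 0.21 and 0.19), and Krt5, a keratin, was at 0.55 and -0.11.

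By sex chromosomes the thymocyte sums lay apart, while the cortical and medullary sums overlapped. The summed thymocyte signal was 40599 to 44451 on the XX and 38541 to 40115 on the XY arrays. How many other sums lie apart like this was not counted. A lower fitted mean in XY was found for 11 of 11 thymocyte genes (median log2 difference -0.12), which are not independent of each other. All 9 cortical and all 9 medullary genes had a higher fitted mean in XY (medians 0.07 and 0.10). Cortical sums were 29031 to 35942 on the XX and 32010 to 35734 on the XY arrays, and medullary sums 5752 to 6856 and 6192 to 7334. The lowest cortical sums were 29031 on XXM array 10 and 29823 on XXM array 6, the arrays high in heart muscle genes. The other XX arrays had 31671 to 35942. The lowest medullary sum, 5752, was also on XXM array 6. The part of these XXM arrays in the fitted differences was not tested. Over all named genes 53.1% lay higher in XY, with a median of 0.01. By sex the thymocyte sum was 39167 to 44451 on the female and 38541 to 43560 on the male arrays. The part of epithelial and thymocyte content in the Pth values, including the difference by sex chromosomes, was not tested.

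Over the 13 lists, which hold 126 measured genes, 0 genes passed limma at an adjusted p of 0.05 for sex or for sex chromosomes. At an unadjusted p under 0.05 there were 0 genes for sex, where 3.03% of all probe sets had one, and 5 for sex chromosomes, where 2.55% did. Those 5 were Calcb of the C cell list, Cxcl12 of the cortical, Aire and Tnfrsf11a of the medullary and Rag2 of the thymocyte list, named after their values were seen.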

How the data were processed

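RNA of thymic epithelium/stroma from day 7 FCG pups had been hybridised to 12 Affymetrix Mouse Gene 1.0 ST arrays. The deposited table holds 1 column of linear intensity values per array for 35556 probe sets, and 0 columns were without a sample. Affymetrix Expression Console 1.1 and PLIER appear in the submitters' processing notes, whereas RMA with quantile normalization is described in the authors' methods; the settings are not stated in either. The deposited intensities were not on a log scale and had array medians of 327.5 to 345.5, so they were used as normalized by the authors. How the summary handled background cannot be read from them, and dim probe sets may be compressed or spread by it. The number of arrays limits the precision.

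Probe sets were named from the platform annotation, with symbols updated through RefSeq (GRCm38.p6). Of them, 21789 had 1 symbol, 1621 several and 12146 none, and only those with 1 were used to name genes. Groups followed the sample labels. Values were log2 transformed and fitted with limma 3.58.1 (R 4.3.3; lmFit and eBayes) to the means of the 4 genotypes, with contrasts for gonadal sex, sex chromosomes and their interaction and Benjamini-Hochberg adjustment over all probe sets at 0.05. The two-way ANOVA of the methods was an alternative. Permutation tests were two-sided, over every grouping of the arrays for differences (exact), and for correlations with 100000 resamples (scipy 1.17.1). The scripts were tested on simulated data. Motifs were searched as plain letters. Figures were drawn with matplotlib 3.10.9.

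The members and the gene lists were chosen with earlier results of these data known. Named were all members, from each list up to 3 genes of the highest mean signal and up to 2 of the lowest p for sex, and for each member the 5 genes of highest r. Chgb, Syp, Gnaq, Tg, Pax9, Six4, Hoxa3, Foxn1, Napsa and the heart muscle genes were added after values were seen. So were the checks on Chga, the r within sets of the lists and the fits without XXM arrays 6 and 10. Further alternatives were quantile normalization once more, log2 of the intensity plus 16, filters on dim or unnamed probe sets, other moderation, array weights, the array numbers as a block, an additive model and leaving out each array.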

Additional observations from a re-analysis of the deposited data

Results flagged for a closer look

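Of 15 groups of 4 to 7 arrays in which the highest and the lowest value were set against the rest, 2 held an array apart from the others by Dixon's criterion, which chance meets in about 1 group in 20. The gaps were taken on linear signals, unlike the fits, which used log2 signals. The groups share arrays and are not independent of each other. Pth on XYM array 1, at a signal of 739.54, stood apart from the other 4 of the 5 XY arrays, its gap to the nearest being 0.744 of the range of the group. That array was also the highest of the series in Chga, at 837, and in Epcam, at 1006. Casr on XXM array 6, at 298.537, stood apart from the other 3 of the 4 XXM arrays, which lay between 258 and 261, with a gap of 0.913 of the range. XXM array 6 was also the array with a Myh6 signal of 1590, where all arrays other than XXM array 10 had 117 to 198. The cause of either value was not tested.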

How the results depend on the processing

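Of 272 values recomputed for 14 results under alternative settings, 268 kept their direction and their side of the threshold, or moved by less than the spread between arrays. In the 184 fits of Pth and Casr, 0 had an adjusted p under 0.05. The methods' two-way ANOVA called 0 of 126 list genes at an adjusted p under 0.05, and at an unadjusted one 4 for sex and 9 for sex chromosomes (2.95% and 3.01% of all probe sets). The correlation of Pth and Casr ran from 0.55 to 0.73 when each array was left out, and did not pass without XYM array 1 or without XXM array 10. It was 0.53 without XXM arrays 6 and 10. The Casr percentile moved from 93.7 to 98.9 with vomeronasal receptors as the reference. Leaving out each array, the log2 difference of Pth by sex ran from 0.05 to 0.60, by sex chromosomes from 0.27 to 0.81 and for the interaction from 0.04 to 1.13. The unadjusted p of the Casr interaction lay between 0.0077 and 0.0716 over all alternatives. Each gene had 1 probe set, so averaging probe sets changed nothing. No paired analysis was possible because the genotypes share no replicate numbers. The signal of Casr over the background limits what can be read from it, and 2 XYM arrays limit the interaction.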
